A study of Mus musculus with 8 samples.

Results

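The nuclei described here are those high in the type II alveolar programme and not in the type I or the transitional programme. They were picked by a rule on RNA counts among nuclei with at least 1000 UMIs (unique molecular identifiers, each standing for 1 captured RNA molecule). For each nucleus, UMIs per 10000 were summed over 5 type II genes (Sftpb, Napsa, Abca3, Lamp3 and Slc34a2), 5 type I genes (Ager, Hopx, Rtkn2, Clic5 and Lmo7) and 5 transitional genes (Krt8, Krt18, Krt19, Cldn4 and Sfn). A nucleus was taken if it lay in the top 25% for the type II sum and outside the top 25% for both other sums, had under 5 Sox9 UMIs, and held under 50 UMIs per 10000 of the airway secretory genes Scgb3a1 and Bpifa1 together. The rule took 1715 of 7168 eligible nuclei (23.9%, exact Clopper-Pearson 95% interval 22.9 to 24.9) out of 7224 deposited. They are called type II-only nuclei below, and all other eligible nuclei are the comparison.

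The data came from mouse alveolarspheres, cultures of type II alveolar cells from young and old mice grown without serum or feeder cells. On day 9 they were infected with adeno-associated virus of serotype 9 carrying either Cre recombinase together with Sox9 (genotype Sox9Cre, treatment Sox9 overexpression) or Cre alone (genotype Cre, the control), so Cre was present in both groups. The medium was then changed for 4 days to one that drives differentiation towards type I cells, and live tdTomato-positive cells were sorted for nuclei. RNA and open chromatin (ATAC, the reading of DNA that a transposase can reach) were measured in the same nuclei, with 8 samples in 4 groups of 2, by virus and assay. The sources used here do not say which samples came from young or old mice, or how many mice were pooled.

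Each nucleus has 1 of 4 barcode prefixes, named libraries A, B, C and D below, but the labels do not say which sample a prefix stands for. Nuclei could therefore not be assigned to Sox9-Cre or Cre, the whole matrix counts as 1 sample, and no p-value is given. Every comparison was made inside each library, and the median of the 4 within-library folds is given with its range. Intervals on levels and shares cover counting error only.

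Type II cells are the cuboidal cells of the lung alveolus that make, store and secrete surfactant, a film of phospholipid and surfactant proteins that keeps the alveolus open. They store it in lamellar bodies, synthesise much of its lipid themselves, and carry MHC class II molecules and antimicrobial proteins at the air surface. They can also give rise to the flat type I cells that line most of the gas exchange surface, and keratin-rich transitional cells are known as intermediates on that path.

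Type II-only nuclei made up 262 of 1253 eligible nuclei in library A (20.9%, 95% interval 18.7 to 23.3), 165 of 760 in B (21.7%, 18.8 to 24.8), 835 of 3228 in C (25.9%, 24.4 to 27.4) and 453 of 1927 in D (23.5%, 21.6 to 25.5). The shares lay within 5 percentage points of each other, and library C held the most members. Of the 1792 nuclei in the top 25% of the type II sum, 23 were also in the top 25% of the type I sum, 13 in that of the transitional sum, 40 had 5 or more Sox9 UMIs and 1 passed the secretory limit. The type II threshold was 86.8 UMIs per 10000. The 5 members nearest to it had sums of 87.0 to 87.5 and the 5 nearest nuclei below it 86.4 to 86.8, and 184 nuclei (2.57%) lay within 10% of it. The threshold is a quantile of the sum, so close neighbours do not show whether the class grades into the other nuclei. Members had a median of 12511 UMIs against 10677 in the others, and a median of 8846 ATAC counts in peaks against 9267. Across eligible nuclei 19 barcode sequences occurred in more than 1 library, and 1 did so among members.

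The values that chose the members are given as a description. Among members the type II sum had a median of 168 UMIs per 10000 (10th to 90th percentile 105 to 238), the type I sum a median of 18.9 and the transitional sum 5.9. Nuclei high only in the type I sum (1228) had a median type II sum of 8.26, and nuclei high only in the transitional sum (1167) one of 4.08. In library order A to D, Sftpb, which encodes surfactant protein B, stood at 98.3, 99, 88.7 and 98.3 UMIs per 10000 in members and 9.88, 9.78, 10.4 and 10.4 in the others. Slc34a2, the apical sodium-phosphate cotransporter, stood at 35.4, 36.6, 37.4 and 36.6 against 1.12, 1.18, 2.31 and 1.85. Its level in members was thus nearly even over libraries, while that in the other nuclei was about 2 times higher in library C than in A. Napsa, the aspartic protease that processes surfactant proteins, Abca3, the lamellar body lipid transporter, and Lamp3, a lamellar body membrane protein, had levels of 23.2, 9.23 and 7.53 in members.

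Since these genes set the class, each was also left out in turn and the members chosen on the other 4. Between 94.3% and 99.4% of the nuclei so chosen were members by the full rule. With Sftpb left out, its own levels were 95.5, 97.9, 85.3 and 96.3 in the nuclei chosen and 11.4, 11.1, 11.7 and 11.5 elsewhere, a fold of 8.35 (7.3 to 8.8). The left-out folds of the other genes were 5.38 for Napsa, 6.35 for Abca3, 17.4 for Lamp3 (11.0 to 24.7) and 19.4 for Slc34a2 (12.9 to 23.4). Each of the 5 genes was higher in all 4 libraries in nuclei picked without it. These were largely the same nuclei, and the rule was written with earlier results known. The left-out folds are thus a description and no independent check.

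The excluded programmes were low but not all at 0. Ager, the receptor that serves as a standard type I marker, stood at 17.2, 17.8, 13.9 and 14.8 UMIs per 10000 in members of libraries A to D and 41.5, 44.5, 26.9 and 27.8 in the others, and did not reach 2-fold in all 4. Pooled, its level in members (15) was close to that in transitional-only nuclei (16.5), far below that in type I-only nuclei (70.6) and above that in the 99 nuclei past the secretory limit (3.3). With every nucleus thinned to 3000 UMIs, 93% of members had an Ager UMI, against 99.5% of type I-only nuclei. The part of free RNA in this level was not tested. Hopx, Rtkn2, Clic5 and Lmo7 stood at folds of 0.191, 0.122, 0.0991 and 0.224.

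Outside the 15 rule genes, 11407 genes had at least 30 UMIs in each library. Of these, 312 (2.74%) were at least 2-fold higher in members in all 4 libraries and 617 (5.41%) at least 2-fold lower. The median log2 fold over all tested genes was -0.13. The 20 most abundant genes took 24.1% of the UMIs of members and 17.1% of those of the others, and scaling to the UMIs outside them moved that median to -0.0025. The genes called higher had a median fold of 3.5. Counts of list members below are read against these 2 shares, and the lists were written with earlier results of these data known.

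Type II markers outside the rule were read first. Of 16 tested type II markers that the rule did not use, 14 were higher, none was lower and the list's median fold was 5.31. Sftpc, which encodes surfactant protein C and was the most abundant of them, had 1004, 1064, 881 and 1019 UMIs per 10000 in members of libraries A to D and 266, 234, 215 and 212 in the others, 4.32-fold (3.78 to 4.8) higher. Every library's members lay above every library's other nuclei for Sftpc, yet its level was still 205 in type I-only nuclei, 99.1 in transitional-only nuclei and 30.3 in nuclei past the secretory limit. Sftpa1 (surfactant protein A) was 7.68-fold (7.46 to 9.33) higher, at 25 against 3.21 UMIs per 10000 pooled. Sftpd (surfactant protein D) was 3.35-fold (2.52 to 4.43) higher, at 18.1 against 6.29. Lpcat1, which remodels phosphatidylcholine into its surfactant form, was 4.95-fold (4.13 to 5.27) higher, and Cxcl15, a chemokine of the lung epithelium, 10.5-fold (8.88 to 15.2). The exceptions were Pi4k2b, at 1.99-fold (1.75 to 2.05), and Ctsh, a cathepsin that processes surfactant protein, whose levels of 14.7, 16.2, 14.7 and 15.2 in members and 17.2, 18.6, 14.6 and 15.8 in the others overlapped. Apart from these 2, the tested markers went with the label. They took no part in the choice, but their list was written with earlier results known, so this is a description and no independent check. Summed, the list stood at 1110 UMIs per 10000 in members and 240 in type I-only nuclei. It stood at 1143 in 36 nuclei high in the type II sum and also in another sum.

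**Figure D1:**
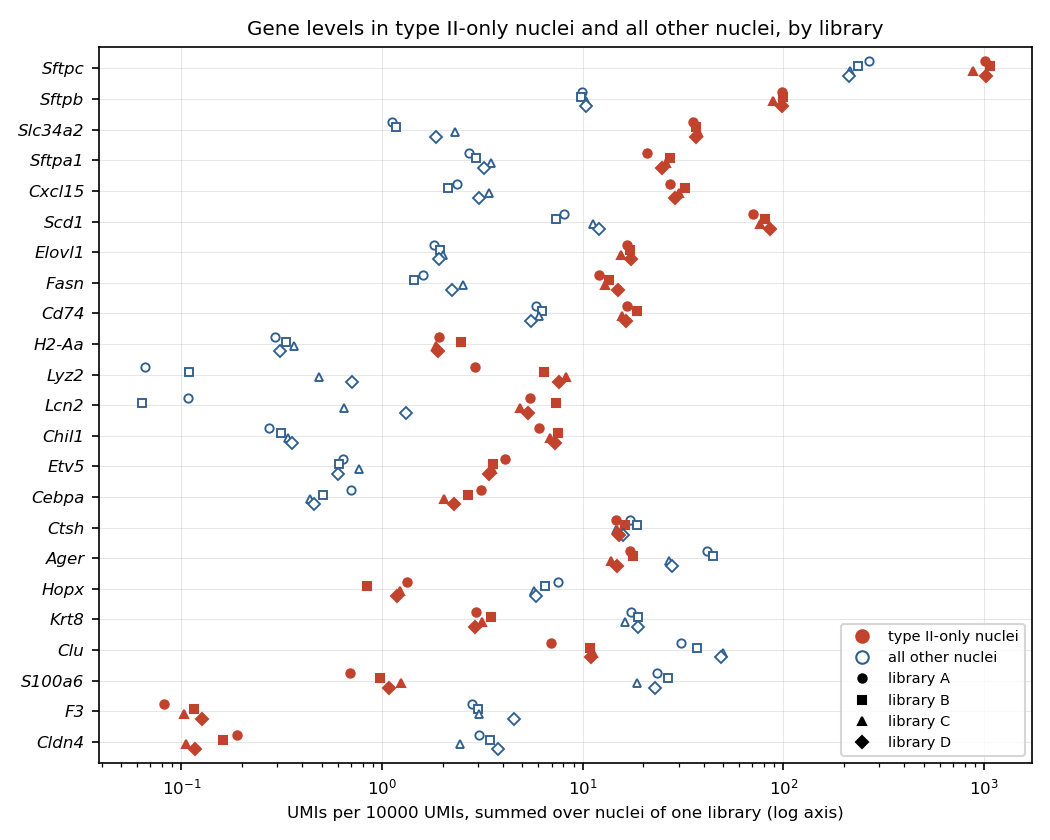
Levels of 23 genes (UMIs per 10000 UMIs, summed over the nuclei of 1 library, log axis) in type II-only nuclei (filled) and in all other eligible nuclei (open), 1 marker shape per library. Surfactant, lipid and defence genes lie to the right in members in all 4 libraries, Ctsh overlaps, and the genes from Ager down lie to the left.

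Genes of lipid supply were higher as a group, those of fatty acid burning mostly not. Of 23 tested genes of fatty acid and phospholipid synthesis 14 were higher and 1 was lower (median fold 2.4). Scd1, the desaturase that makes monounsaturated fatty acids, stood at 70.2, 81, 76.5 and 85.6 UMIs per 10000 in members and 8.04, 7.34, 11.2 and 12.1 in the others, 7.91-fold (6.81 to 11) higher. Fasn, fatty acid synthase, stood at 12, 13.5, 12.8 and 15 against 1.6, 1.45, 2.53 and 2.23, 7.12-fold (5.08 to 9.33) higher. Neither gene's groups overlapped in any pair of libraries. Elovl1, an elongase of saturated very long chains, was 8.97-fold (7.68 to 9.16) higher at 16.3 against 1.94. Acly and Acaca, which feed fatty acid synthase, were 2.68-fold (2.55 to 2.79) and 2.62-fold (2.51 to 2.73) higher, and Srebf1, the transcription factor of this pathway, 3.08-fold (2.88 to 3.39). Acsl4, which activates polyunsaturated fatty acids, was 3.39-fold (3.04 to 3.59) higher. The 1 lower member was Elovl6, the elongase that takes palmitate to stearate, at 0.0197 against 0.059 UMIs per 10000 and 0.3-fold (0.18 to 0.444), a low level in both groups. Members of library A held 0 UMIs of Elovl6 and those of B 2, so 3 stood in for them in the folds.

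Of 19 tested genes of cholesterol synthesis and uptake 7 were higher and none was lower, and the median fold of all 19 was above 1. Insig1, the sterol sensor partner, was 2.65-fold (2.16 to 3.46) higher and Fdps, a synthase of the pathway, 2.34-fold (2.02 to 2.73). Of 16 genes of fatty acid oxidation and the peroxisome only Cat, catalase, was higher (2.52-fold, 2.15 to 2.88). The 24 tested genes of lamellar body and surfactant handling had a median fold of 1.01: Lpcat1, Atp11a and Rab27a were higher, and the general lysosome genes Lamp1 and Lamp2 stood at folds of 0.867 and 0.809. Rab27a, a small GTPase of secretory granules, was 8.84-fold (5.67 to 10.6) higher.

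**Figure D2:**
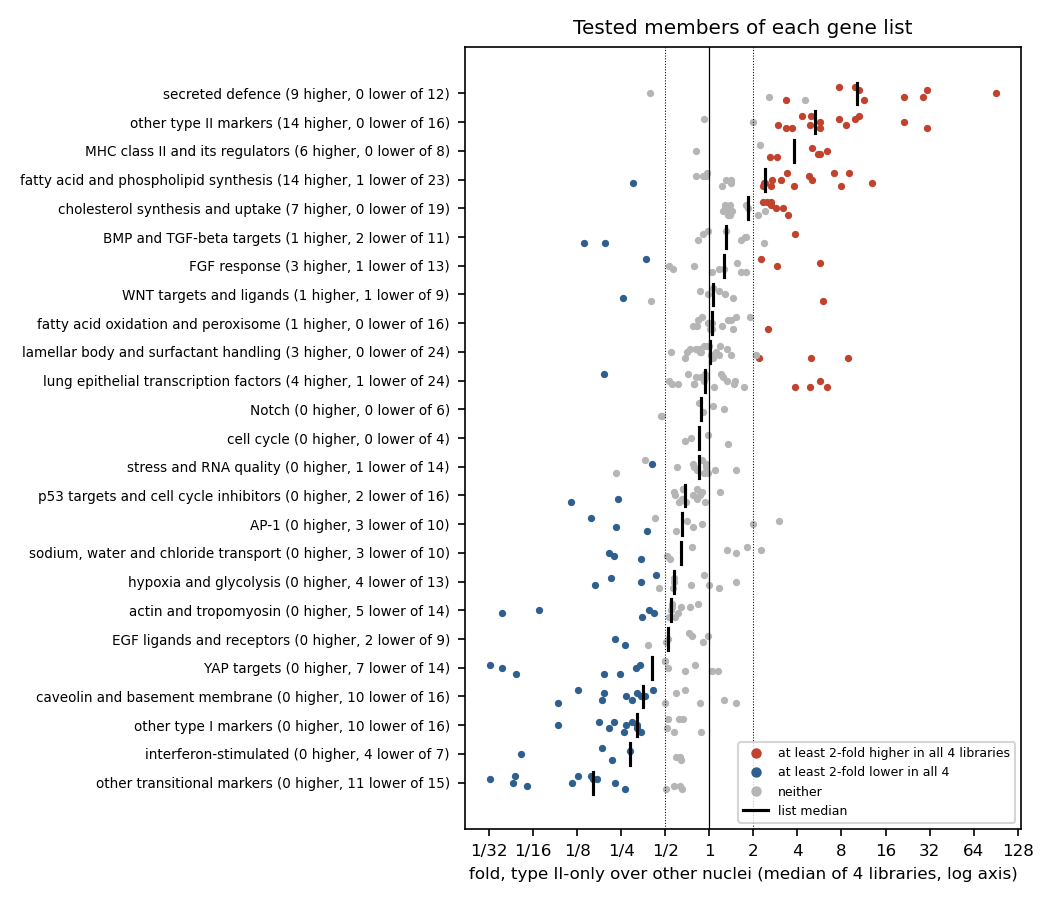
Folds of the tested members of 25 gene lists (type II-only over other nuclei, median of 4 libraries, log axis), with 1 point per gene and a bar at the list's median. Secreted defence, type II, MHC class II and lipid synthesis lists lie to the right, and transitional, interferon, type I, caveolin and YAP lists to the left. Dotted lines mark 2-fold.

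MHC class II genes were higher together. Of 8 tested members 6 were higher and none was lower. Summed, the list stood at 23.3 UMIs per 10000 in type II-only nuclei, 9.98 in type I-only and 4.64 in transitional-only nuclei. It was about as high, at 22.1, in 36 nuclei high in the type II sum and also in another sum. H2-Aa, which encodes a class II chain, stood at 1.91, 2.48, 1.85 and 1.9 UMIs per 10000 in members of libraries A to D and 0.292, 0.331, 0.365 and 0.31 in the others, 6.34-fold (5.06 to 7.48) higher. H2-Ab1 was 4.99-fold (4.12 to 5.17) higher and H2-Eb1 5.7-fold (4.48 to 6.09). Cd74, the invariant chain that accompanies class II molecules, was 2.9-fold (2.61 to 2.98) higher at 16.4 against 5.9. Ciita, the transactivator that switches on class II genes, was 5.54-fold (5.1 to 7.01) higher at 0.305 against 0.0542. Another regulator, Rfx5, stood at 0.813. Immune cells also carry these genes, so their other markers were read in the same nuclei. Marco and S100a9 had 0 UMIs in members, which allows up to 0.00131 UMIs per 10000, and Ptprc, the common leukocyte gene, had 5 UMIs in all. The 11 immune markers other than Lyz2 summed to 0.041 to 0.0698 UMIs per 10000 over the 4 libraries in members and to 0.104 to 0.133 in the other nuclei.

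Secreted defence genes had the highest list median, 10.2-fold, with 9 of 12 tested members higher and none lower. These levels were not particular to the type II-only nuclei. The list summed to 98.1 UMIs per 10000 in them and to 81.5 in nuclei past the secretory limit. It stood at 66.8 in 36 nuclei high in the type II sum and also in another sum, and at 7.31 in type I-only nuclei. Lyz2, Cxcl15, Sftpd, Sftpa1, Chil1 and Hc are also among the type II markers above. Lyz2, lysozyme, stood at 2.91, 6.39, 8.29 and 7.64 UMIs per 10000 in members of libraries A to D and 0.0661, 0.109, 0.483 and 0.706 in the others. Its within-library folds were 44.1, 58.6, 17.2 and 10.8, and the other nuclei of C and D held more of it than those of A and B. Lcn2, the iron-siderophore-binding lipocalin, stood at 5.43, 7.33, 4.85 and 5.36 against 0.107, 0.0632, 0.645 and 1.31, with folds of 50.6, 116, 7.52 and 4.09. In C and D the other nuclei include those past the secretory limit, where Lcn2 stood at 19.7. The part of these nuclei in the C and D folds is not given here. Lrg1, a secreted leucine-rich glycoprotein, had folds of 169, 171, 13.6 and 9.89. These medians moved with the libraries taken. Without library A they were 16.6 for Lyz2, 7.73 for Lcn2 and 14.0 for Lrg1, and without C 49.3 for Lcn2 and 152 for Lrg1. Without B the 3 medians were 17.3, 7.60 and 13.7, and without D those of Lcn2 and Lrg1 were 46.7 and 153. Lrg1 stood at 23.7 with members from the top 20% of each sum and at 51.3 after thinning, and Lcn2 at 45.3 without the nuclei of highest doublet score. Chil1, a chitinase-like protein, was even over libraries, at 6.02, 7.49, 6.86 and 7.3 against 0.272, 0.312, 0.341 and 0.354 and 21.4-fold (20.1 to 24). Il33, an alarmin cytokine, was 11.4-fold (7.4 to 17.3) higher. Cxcl1, a neutrophil chemokine, went the other way at 0.394 without reaching the call.

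Some defence genes, Lyz2, Lrg1, Chil1 and Lcn2, had most of their UMIs in few members. Over 4363 genes with a mean of at least 0.1 UMI in members thinned to 3000 UMIs (1680 of 1715 nuclei), the variance-to-mean ratio had a median of 1.08, where counting alone gives 1, and a 90th percentile of 1.31. Sftpc had the highest ratio, 51.2, followed by Malat1 at 30.3. Lyz2 reached 26.1, Gm42418 19.8, Scd1 13.7, Chil1 10.1, Lcn2 8.8 and Lrg1 8.12. The 10% of members highest for Lyz2 held 87.1 to 95.9% of its UMIs, depending on the library, and for Lrg1 88.2 to 99.3%. The shares were 63.9 to 70.5% for Chil1 and 54.8 to 64.1% for Lcn2. Members with at least 10 Lyz2 UMIs numbered 217 (12.7%), namely 20, 15, 120 and 62 in libraries A to D, and none of them had a Ptprc UMI. A Lyz2 UMI was seen in 33.7% of members (20.5% thinned to 3000 UMIs) and in 8.22% of type I-only nuclei (2.48% thinned), whose median depths were 12511 and 9705 UMIs. Lcn2 was seen in 62.3% of members (40.4% thinned) and 5.62% of type I-only nuclei (1.71% thinned). By the share of UMIs in the highest 10% of members the order differs from that of the ratio. Sftpc, seen in nearly all members, had 16.5 to 18.6% there. The defence gene Cxcl15 had 32.6 to 36.7%, with a UMI in 98.1% of members. Sftpa1 (43.4 to 50.9%) and Clu (45.7 to 55.5%) lay between Cxcl15 and Chil1.

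**Figure D3:**
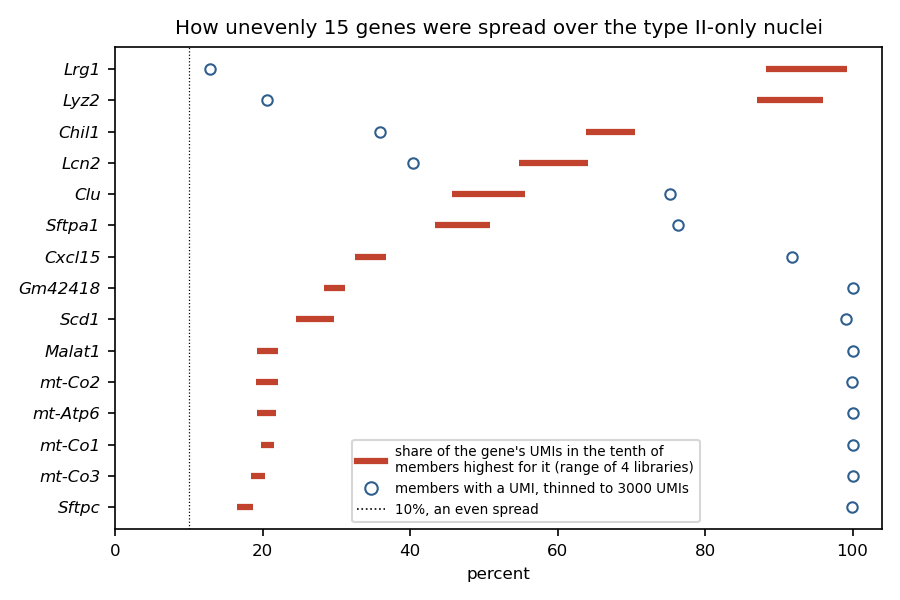
For the 15 genes with the highest variance-to-mean ratio among type II-only nuclei, the bar gives the percentage of the gene's UMIs held by the 10% of members highest for it (range of 4 libraries) and the circle the percentage of members with a UMI after thinning to 3000. Lrg1 and Lyz2 are concentrated in few members, Sftpc and the mitochondrial genes are not.

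Uneven genes went together in part. Across members of 1 library (thinned nuclei, which share a library and a depth), Spearman's rho of Lcn2 with Chil1 was 0.48 to 0.58, of Lcn2 with Lrg1 0.40 to 0.51 and of Lyz2 with Chil1 0.33 to 0.49. The values for Cd74 with H2-Aa were 0.46 to 0.54 and for Scd1 with Fasn 0.40 to 0.52. The coefficient of Lyz2 with Sftpc lay between -0.000775 and 0.0806. These coefficients are descriptions, since nuclei are not replicates.

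Of 24 tested lung epithelial transcription factors 4 were higher, against 2.74% of all tested genes, 1 (Hopx, a rule gene) was lower and the median fold was 0.94. Cebpa, a C/EBP factor of type II maturation, stood at 3.1, 2.69, 2.04 and 2.29 UMIs per 10000 in members and 0.698, 0.507, 0.438 and 0.455 in the others, 4.84-fold (4.44 to 5.31) higher. Etv5, an ETS factor downstream of FGF signalling, stood at 4.11, 3.58, 3.51 and 3.41 against 0.636, 0.612, 0.766 and 0.606, 5.74-fold (4.58 to 6.46) higher. Id2, an inhibitor of helix-loop-helix factors, was 3.82-fold (3.13 to 4.71) higher, and Elf5, an ETS factor, 6.41-fold (3.87 to 12.6). Nkx2-1, the factor that marks lung epithelium, had a fold of 1.2 (1.11 to 1.29) and Foxa2 one of 0.929. The list's median turned to 1.03 when levels were scaled to UMIs outside the 20 most abundant genes, so no direction is given for the list. Of 13 genes of the FGF response 3 were higher, Etv5, Spred2 (2.26-fold, 2.09 to 2.47) and Spry4 (2.9-fold, 2.22 to 7.36), and 1, Fgfbp1, was lower (0.37-fold, 0.314 to 0.42). Of 9 WNT genes Nkd1, a feedback inhibitor, was higher (5.94-fold, 5.55 to 7.74) and the ligand Wnt7a lower (0.259-fold, 0.189 to 0.28). Of 11 BMP and TGF-beta targets Id2 was higher and 2 were lower, among them Tgfb2 (0.192-fold, 0.162 to 0.293). Spry4 stood at 4.77 after thinning.

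On the low side, type I markers outside the rule had 10 of 16 tested genes lower and none higher (median fold 0.319). Emp2, a membrane protein of type I cells, stood at 4.22, 4.4, 4.43 and 4.46 UMIs per 10000 in members of libraries A to D and 17.5, 18.1, 15.2 and 15.1 in the others, 0.267-fold (0.24 to 0.296). Gprc5a, a retinoic acid-inducible receptor, was at 0.223-fold (0.199 to 0.253), Akap5, an anchoring protein, at 0.261-fold (0.209 to 0.334) and the basement membrane collagen Col4a4 at 0.319-fold (0.274 to 0.375). Cav1, which forms caveolae, was at 0.0919-fold (0.0734 to 0.114). Aqp5, the water channel, and Pdpn had folds of 0.513 and 0.883 and did not pass. Of 16 caveolin and basement membrane genes 10 were lower, while Col4a1 stood at 1.52. Of 10 genes of sodium, water and chloride transport Scnn1b, Scnn1g and Ano1 were lower (folds of 0.222, 0.205 and 0.341), and the sodium pump subunit Atp1b1 stood at 2.26.

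Transitional markers outside the rule had 11 of 15 tested genes lower and none higher, with a median fold of 0.161. Clu, clusterin, stood at 6.97, 10.9, 11.3 and 11 UMIs per 10000 in members and 30.9, 37.2, 49.8 and 48.5 in the others, 0.227-fold (0.226 to 0.293). Krt7, a keratin, was at 0.161-fold (0.15 to 0.176), Lgals3, galectin 3, at 0.127-fold (0.118 to 0.148) and Areg, an EGF family ligand, at 0.266-fold (0.25 to 0.415). F3, tissue factor, stood at 0.082, 0.116, 0.103 and 0.126 against 2.8, 3.01, 3.04 and 4.53, 0.0316-fold (0.0278 to 0.0385). Of 14 YAP targets 7 were lower, F3 among them, with Nt5e (0.189-fold, 0.16 to 0.207), Ptpn14 (0.317-fold, 0.301 to 0.342) and Ajuba (0.246-fold, 0.163 to 0.26), while Yap1 itself had a fold of 0.951. Of 10 AP-1 genes Fosl1, Fosl2 and Batf were lower (folds of 0.156, 0.374 and 0.23), and Fos went the other way without reaching 2-fold in every library (1.99-fold, 1.46 to 2.54). Of 7 tested interferon-stimulated genes 4 were lower, at low levels in both groups. The highest of them in members, Isg15, stood at 0.0293 against 0.141 UMIs per 10000. Thinned to 3000 UMIs, the folds of Isg15 and Ifit3 were 0.317 and 0.134 against 0.184 and 0.0519, that of Fosl1 was 0.338, that of Batf 0.367, and Oasl2 moved from 0.215 to 0.612. Batf stood at 0.136 with members from the top 20% of each sum.

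Of 13 hypoxia and glycolysis genes 4 were lower, namely Eno1 (0.341-fold, 0.299 to 0.389), Pgk1 (0.434-fold, 0.358 to 0.495), Pfkp and Ndrg1, and Ldha stood at 1.17. Of 14 actin and tropomyosin genes 5 were lower, with Tpm2 at 0.0382-fold (0.0234 to 0.0438). Scaled to UMIs outside the 20 most abundant genes, the counts lower were 3 of 13 and 4 of 14, and for the caveolin and basement membrane list 9 of 16. Of 16 p53 targets and cell cycle inhibitors Cdkn2a and Cdkn2b were lower (0.113-fold, 0.0482 to 0.213, and 0.238-fold, 0.218 to 0.267), with Cdkn2a at 0.259 after thinning, and Cdkn1a had a fold of 0.576. Of 9 EGF ligands and receptors Areg and Nrg1 were lower. None of 6 Notch genes and none of 4 tested cell cycle genes was called. Mki67, the proliferation marker, had 63 UMIs in all members together. Among stress and RNA quality genes Hsp90aa1 was lower (0.406-fold, 0.396 to 0.428), and the mitochondrial gene mt-Co1 and the nuclear RNA Malat1 had folds of 1.1 and 0.768.

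Outside the lists, the highest folds, taken where 10% or more of members had a UMI of the gene, were in genes of several kinds. Adam19, a membrane protease, stood at 1.44, 1.15, 1.11 and 1.28 UMIs per 10000 in members and 0.0412, 0.0444, 0.0747 and 0.0649 in the others, 22.8-fold (14.9 to 35) higher. A UMI of it was seen in 52% of members (26.4% thinned) and 1.06% of type I-only nuclei (0.257% thinned). Hdc, which makes histamine, was 19.2-fold (10.8 to 21.4) higher, and Mlc1, a membrane protein, 20-fold (11.9 to 28.9), with a median of 12.6 without library A and 12.3 without B. Lbp, which binds bacterial lipopolysaccharide, had folds of 33.9, 31, 4.4 and 2.32 in libraries A to D (median 4.22 without A, 4.42 without B, 31.2 without C or without D, and 9.95 after thinning). Slco4c1, an organic anion transporter, was 12.6-fold (8.41 to 13.8) higher, Inpp4b, a phosphoinositide phosphatase, 9.99-fold (8.57 to 11.2), and Atp6v1c2, a subunit of the proton pump, 14.8-fold (8.43 to 19.3). Rnase4 and Ang, secreted ribonucleases whose genes share a promoter, were 9.27-fold (7.27 to 10.6) and 8.59-fold (6.86 to 12.3) higher, and reads of overlapping first exons may be counted to either. The others of the 20 were Ly6c2, Cthrc1, Tspan11, 5033403H07Rik, St6galnac3, Acoxl, Slc24a4, Cracr2a, Entpd1, Gm20629 and Ros1, with median folds of 9.04 to 21.1. After thinning Cthrc1 moved from 16.9 to 10.3. The same 10% limit was used for the lowest folds outside the lists. It kept 269 of the 617 genes called lower, and genes seen in fewer members are not ranked here. The lowest was S100a6, a calcium-binding protein, at 0.0418-fold (0.0293 to 0.0668). Its levels were 0.691, 0.978, 1.24 and 1.08 against 23.5, 26.5, 18.5 and 23. The next were Lhfp, Mcam, Hspb1, Mcc, Mboat1, S100a10, Tuba1a, Ier3 and Osbpl3, at 0.0995 to 0.136.

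ATAC took no part in the rule. Peak positions are on GRCm38 (mm10). Of 40925 peaks with at least 30 counts in each library, 949 (2.32%) were at least 1.5-fold more open in members in all 4 libraries and 2590 (6.33%) at least 1.5-fold less open. Both numbers depend on library B, which had the fewest counts: without it they were 2813 and 7108. The count filter then covers fewer libraries and more peaks can pass it. The number tested in that run is not given, so these counts are not shares of the 40925. The more open peaks lay mostly away from gene starts: 48 (5.06%) were within 1 kb of one, 574 (60.5%) elsewhere in a gene and 327 (34.5%) between genes, against 25.9%, 49.9% and 24.2% of all tested peaks. Among those with a gene start within 100 kb, the nearest start belonged to a gene with higher RNA for 9.91% of more open peaks and 2.6% of all tested. For less open peaks it belonged to a gene with lower RNA in 11.8%, against 4.95% of all tested. Only genes with a start in the RefSeq promoter set could be nearest. These were 247 of the 312 genes with higher RNA and 453 of the 617 with lower RNA. Sftpc, Scd1 and Napsa had no such start, so peaks near them could only be assigned to other genes.

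The peak with the highest lowest-library fold lay between genes at chr11:43769790-43770735, 22254 bases from the start of Ttc1. It held 32, 22, 140 and 133 counts in members of libraries A to D and 20, 15, 87 and 62 in the far more numerous other nuclei, 6.06-fold (4.44 to 7.03) per count in peaks. The next, 1332 bases from the start of Klk13 at chr7:43713403-43714395, was 5.68-fold (4.22 to 6.84) more open. At genes named above, a peak at chr17:24359516-24360442 inside Abca3, 7956 bases from its start, was 2.44-fold more open (1.79 to 2.97), one at chr16:19698944-19699891 inside Lamp3 2.23-fold (1.88 to 2.28) and one at chr11:46085052-46086030 inside Adam19 2.82-fold (2.06 to 2.91). Of the 15 rule genes only Abca3, Lamp3, Slc34a2, Clic5, Lmo7 and Cldn4 were the nearest gene of a called peak within 100 kb. Sftpb, Ager and Hopx were not. Napsa, Rtkn2 and Krt19 had no start in the promoter set, so no peak could be assigned to them. Clic5 and Lmo7, both type I rule genes, had 5 (of 17 tested) and 4 less open peaks and none more open. The lowest of those at Clic5, at chr17:44155047-44155833, stood at 0.182 (0.0994 to 0.319). Slc34a2 had a peak that went against its RNA, at chr5:53041972-53042907, 6914 bases from its start. Its accessibility was 0.531 (0.326 to 0.57) of that in the other nuclei, with 8, 3, 36 and 28 counts in members of libraries A to D. Farther upstream, peaks at chr5:52990387-52991446 (3.87-fold, 3.26 to 6.39) and chr5:52993383-52994318 (2.52-fold, 2.18 to 3.55) were more open. Their nearest start was that of 5033403H07Rik, and which gene they act on was not tested.

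Summed over a gene plus flanks of 2 kb, accessibility moved far less than RNA. Of 10874 such windows 3196 (29.4%) had a fold above 1 in all 4 libraries and 1427 (13.1%) below 1 in all 4, with a median of 1.04. Of the genes with higher RNA, 195 of 295 windows (66.1%) were above 1 in all 4, with a median fold of 1.18. Of those with lower RNA, 329 of 580 (56.7%) were below 1 in all 4, with a median of 0.889. The 5 type II rule genes, for which RNA but not ATAC made the choice, had window folds of 1.92 (1.57 to 2.33) for Slc34a2, 1.73 (1.4 to 1.95) for Sftpb, 1.6 (1.45 to 1.96) for Lamp3, 1.47 (1.28 to 1.67) for Napsa and 1.47 (1.29 to 1.54) for Abca3. All 5 were above 1 in every library. Sftpc stood at 1.46 (1.36 to 1.69), Scd1 at 1.72 (1.39 to 1.86) and H2-Aa at 1.52 (1.36 to 1.63), and 7 of 8 MHC class II windows were above 1 in all 4 libraries.

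Some genes with large RNA folds had even windows. Etv5, 5.74-fold higher in RNA, had a window fold of 1.02 (1.01 to 1.02). Rtkn2, at 0.122 in RNA, had 1.13 (1.11 to 1.22), above 1 in all 4 libraries, and Krt18, at 0.228 in RNA, had 1 (0.957 to 1.06). Lyz2 went the other way from its RNA, at 0.683 (0.539 to 0.885), with a single peak and 149 counts in members. Ager, whose RNA fold was 0.466, had 0.699 (0.506 to 0.76). The lower windows included Cldn4 at 0.496 (0.434 to 0.535), S100a6 at 0.523 (0.465 to 0.579) and the YAP target Ankrd1 at 0.358 (0.25 to 0.47), the last with 97 counts in members.

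**Figure D4:**
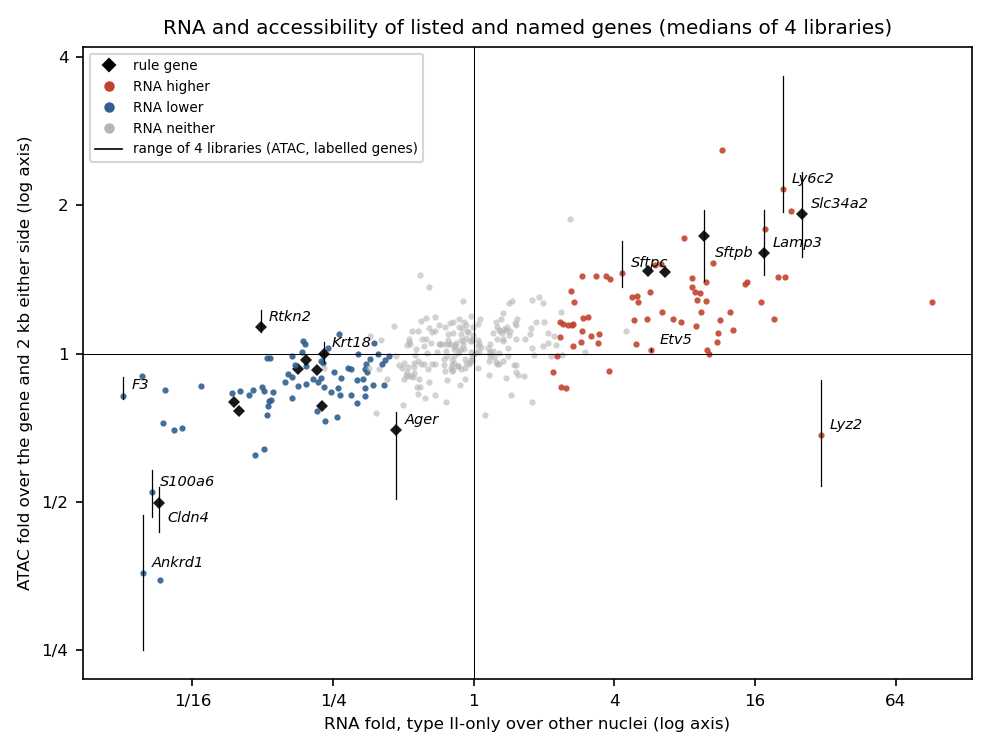
RNA fold (horizontal) against ATAC fold over the gene plus flanks of 2 kb (vertical), type II-only over other nuclei, medians of 4 libraries, both axes log. Genes with higher RNA lie mostly above 1 in ATAC and genes with lower RNA mostly below, with Lyz2, Etv5, Rtkn2 and Krt18 away from that pattern.

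Promoters were read from RefSeq (GRCm38.p6, 250 bases before to 50 after each gene's start) for 247 of the genes with higher RNA, 453 with lower RNA and 8971 of all tested genes. Short motifs were searched on both strands. The C/EBP motif TTGCNNAA was in 15.4% of promoters of genes with higher RNA, 6.84% of those with lower RNA and 7.72% of all. For the AP-1 motif TGANTCA the shares were 4.05%, 10.4% and 4.44%, in the same order. The NKX2-1 motif CTCAAG was near even, at 13%, 13.2% and 13.7%, and the ETS motif CCGGAAG was in 8.1%, 5.96% and 20.3%. The CCAAT box CCAAT was in 43.7%, 32.9% and 38.5%. The TATA box was searched as TATAAA and found in 8.5%, 10.6% and 6.25%. Forkhead sites were searched as TGTTTAC, those of GATA factors as AGATAA, those of TEAD factors as CATTCC and those of SOX factors as ACAAAG. Sterol response elements were searched as TCACNCCAC and E-boxes as CACGTG, and the plot of promoter motifs gives their shares. A match describes letters and is not a bound site, and the part of base composition in these shares was not tested.

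**Figure D5:**
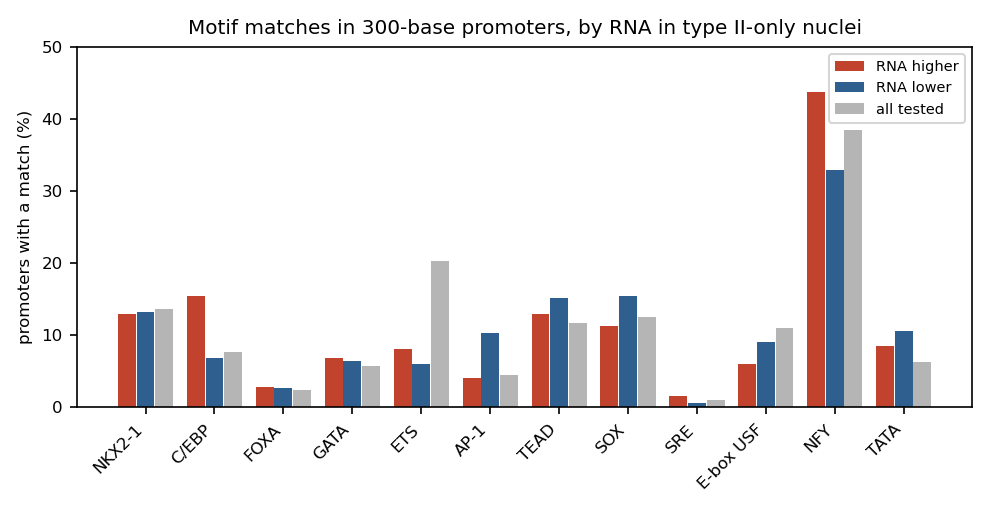
Percentage of 300-base promoters with at least 1 match to each of 12 motifs, for genes with higher RNA (247), genes with lower RNA (453) and all tested genes with a promoter (8971). C/EBP matches are most frequent in the first set, AP-1 matches in the second, and ETS matches in the full set.

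A few promoters with an accessible peak show such matches. These promoters were picked with their values known. The promoter of Slc34a2 (chr5:53049103-53049402, plus strand) lay in a peak 1.83-fold (1.44 to 2.28) more open in members. Its C/EBP match, in capitals, begins at -48, counted from the gene's first base as 0.
Slc34a2: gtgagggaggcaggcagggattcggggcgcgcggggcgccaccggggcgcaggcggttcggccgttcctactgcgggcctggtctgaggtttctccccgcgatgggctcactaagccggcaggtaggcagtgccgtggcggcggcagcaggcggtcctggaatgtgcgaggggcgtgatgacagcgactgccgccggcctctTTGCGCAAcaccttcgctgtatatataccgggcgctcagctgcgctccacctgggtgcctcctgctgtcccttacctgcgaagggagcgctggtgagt
The promoter of Sftpb (chr6:72304360-72304659, plus strand) lay in a peak 1.97-fold (1.42 to 2.34) more open. Its NKX2-1 matches, in capitals, begin at -100 and -15, and the second overlaps an AP-1 match that begins at -18.
Sftpb: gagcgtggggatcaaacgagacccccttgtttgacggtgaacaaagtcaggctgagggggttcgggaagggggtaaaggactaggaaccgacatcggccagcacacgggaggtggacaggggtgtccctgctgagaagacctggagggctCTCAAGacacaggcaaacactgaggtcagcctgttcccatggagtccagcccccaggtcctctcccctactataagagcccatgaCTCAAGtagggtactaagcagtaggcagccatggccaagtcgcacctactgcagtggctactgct
On the low side, with AP-1 matches in capitals, the promoter peak of Cldn4 (chr5:134946885-134947184, minus strand) stood at 0.542-fold (0.468 to 0.572), with matches at -240 and -158.
Cldn4: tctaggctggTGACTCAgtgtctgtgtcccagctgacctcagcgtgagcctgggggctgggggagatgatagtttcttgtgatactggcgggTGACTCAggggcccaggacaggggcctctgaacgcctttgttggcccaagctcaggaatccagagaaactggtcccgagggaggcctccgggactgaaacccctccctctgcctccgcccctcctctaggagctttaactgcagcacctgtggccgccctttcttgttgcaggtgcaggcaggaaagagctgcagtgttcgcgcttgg
That of F3 (chr3:121723287-121723586, plus strand) stood at 0.714-fold (0.668 to 0.819), with matches at -146 and -135.
F3: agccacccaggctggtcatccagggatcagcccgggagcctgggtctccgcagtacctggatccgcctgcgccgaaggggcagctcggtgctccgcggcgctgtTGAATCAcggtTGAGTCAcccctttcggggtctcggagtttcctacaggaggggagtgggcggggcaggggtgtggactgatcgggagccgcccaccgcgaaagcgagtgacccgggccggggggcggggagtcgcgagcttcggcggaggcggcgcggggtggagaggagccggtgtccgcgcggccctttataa
That of Sprr1a (chr3:92485832-92486131, minus strand), a cornified envelope gene whose RNA was at 0.0456-fold (0.0178 to 0.0942), stood at 0.347-fold (0.318 to 0.367), with matches at -146 and -116.
Sprr1a: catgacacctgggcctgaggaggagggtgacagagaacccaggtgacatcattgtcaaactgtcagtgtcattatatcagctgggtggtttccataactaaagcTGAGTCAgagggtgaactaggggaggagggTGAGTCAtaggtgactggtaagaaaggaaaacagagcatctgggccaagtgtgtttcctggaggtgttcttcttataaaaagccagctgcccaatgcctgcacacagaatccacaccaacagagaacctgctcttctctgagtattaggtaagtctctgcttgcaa
The promoter peaks of Abca3 (0.972-fold, 0.897 to 1.09) and Etv5 (0.989-fold, 0.915 to 1.06) were near even although their RNA was higher in every library.

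Sox9 entered the rule as a limit. Of the 1715 members, 1361 had no Sox9 UMI. Those with 1 to 4 numbered 4, 4, 238 and 108 in libraries A to D, and members held 580 Sox9 UMIs in all. In library C the members with 1 to 4 Sox9 UMIs stood at 837 UMIs per 10000 for Sftpc and those with none at 903, and in library D at 930 and 1051. For Slc34a2 the values were 38.5 and 36.9 in C and 36.4 and 36.7 in D. Other genes differed more, mostly in D. Lyz2 stood at 7.3 and 8.75 in C and at 3.75 and 9.06 in D, and Lcn2 at 4.24 and 5.14 in C and at 2.85 and 6.27 in D. Clu stood at 11.8 and 11 in C and at 15.2 and 9.51 in D. Nuclei with a Sox9 UMI were also deeper, with a median of 13488 against 11783 UMIs in C and 14790 against 12388 in D, and the part of depth was not tested.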

How the data were processed

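Single-nucleus RNA and ATAC counts were deposited by the authors as 2 pooled matrices of 7224 nuclei, with whole-number counts per gene (UMIs) and per peak. The submitters' processing notes list Signac 1.10.0, Seurat 4.3.0 and Cell Ranger 6.0.1, and mm10 and GRCm38 as builds. The sources used here do not state how peaks were called or nuclei filtered. No columns of per-sample values of other samples were present (0). The members and gene lists were chosen with earlier results of these data known.

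Nuclei with at least 1000 UMIs were kept (7168), with 22879240 UMIs in members and 65446984 in the others. UMIs were summed over members and over the other nuclei of each library and expressed per 10000. Counts below 3 were set to 3 in folds, and genes needed 30 UMIs in each of the 4 libraries. A gene was called at 2-fold, and a peak (at least 30 counts per library) at 1.5-fold, in all 4. The exact Poisson and Clopper-Pearson 95% intervals cover counting error only, and no test over samples could be made. The scripts were tested on simulated data. Named genes were the rule genes, up to 4 called members of each list by level, the 20 highest and 10 lowest folds outside the lists where 10% or more of members had a UMI, and the 15 most variable genes. Other list members, and the promoters and peaks shown, were picked after their values were seen. Scrublet, run in scanpy 1.11.5, marked 5 nuclei (0.0698%) and so did not work as a caller. Doublets were therefore kept, and the 5% of nuclei with the highest scores were left out as an alternative. Python 3.11.15, numpy 2.4.6, scipy 1.17.1, pandas 2.3.3 and matplotlib 3.10.9 were used. Promoter sequences are RefSeq's, on GRCm38.p6. A promoter was matched for 247 of 312 genes called higher and 453 of 617 called lower, below the share set for a check of base composition, so none was made. Values of a few listed genes are not reported here. Alternatives covered the membership thresholds, the comparison nuclei, depth, scaling, filters, fold limits and each library left out.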

Additional observations from a re-analysis of the deposited data

How the results depend on the processing

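No paired analysis was possible because the matrices pool all samples with no map from nuclei to samples. The share of type II-only nuclei was 19.5% with the top 20% of each sum and 29.0% with the top 1/3, by construction of the rule. With 1 library left out in turn it was 23.9 to 24.0%. The genes called higher then numbered 329 to 342 and lower 632 to 758, of 11407 to 12061 tested. The peaks called more open numbered 1085 to 2813 and less open 2870 to 7108, and the number of peaks tested in each of these runs is not given. The left-out folds then ranged from 8.27 to 9.01 for Sftpb, 5.24 to 5.45 for Napsa, 6.05 to 6.77 for Abca3, 13.0 to 24.1 for Lamp3 and 15.4 to 28.4 for Slc34a2. With every nucleus thinned to 3000 UMIs, 184 genes were higher and 341 lower of 8299 tested, and 177 and 306 of them were calls at full depth. The left-out folds were then 9.20 for Sftpb and 5.88 for Napsa, and 7.12 for Sftpb with the top 20% of each sum. At 3-fold 138 genes were higher and 274 lower, and at 1.5-fold 606 and 1254. At 2-fold 234 of the 40925 tested peaks were more open and 973 less open. With at least 100 counts per library 53 and 163 were called, of a smaller tested set whose size is not given. Scaled to UMIs outside the 20 most abundant genes, 365 genes were higher and 508 lower, so that 41.8% of calls were higher against 33.6%. The other alternatives left the counts within 1.5 times. Of 1848 values of 132 named genes under 14 alternatives each, 1691 lay within the range of the 4 libraries' folds and 157 outside it. A turn of direction was counted only for the 120 named genes that were called, and 0 turned. These genes were past 2-fold in all 4 libraries and the alternatives share most nuclei, so a turn was unlikely from the start. Library B has the fewest ATAC counts. The cause of these shifts was not tested.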

Other observations

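Markers of other cell types were low in type II-only nuclei. None of the basal and mesenchymal genes reached 30 UMIs in each library, and Krt5, Krt14, Krt15, Ngfr, Col1a2, Col3a1, Lum, Tcf21, Cdh5, Kdr and Cldn5 had 0 UMIs in members, which allows up to 0.00131 UMIs per 10000. Of 3 tested airway secretory genes 2 were lower. Scgb1a1, a club cell secretoglobin, stood at 0.22 UMIs per 10000 against 1.64 in the other nuclei and a fold of 0.167 (0.108 to 0.334). Aldh1a1, a retinaldehyde dehydrogenase, stood at 0.135 against 0.889 and a fold of 0.167, or 0.281 after thinning to 3000 UMIs. The 99 nuclei past the secretory limit could not be members, so all lay in the comparison, in libraries C and D. Summed, the airway secretory list stood at 879 UMIs per 10000 in them and 1.54 in members. It stood at 2.74 in type I-only and 3.3 in transitional-only nuclei. In libraries A and B members stood at 0.621 and 0.739 against 1.75 and 1.64 in the others. The part of the exclusion in the 2 lower calls was not tested. Among 3 ciliated genes Cfap43 was lower, at 0.0406 against 0.189. Of 2 tested endothelial genes Pecam1 was lower, at 0.0149 against 0.0405 and a fold of 0.348, but stood at 0.665 after thinning and was no longer called with levels scaled to UMIs outside the 20 most abundant genes. The other, Egfl7, stood at 0.0835 against 0.0426 and a fold of 1.97 (1.57 to 2.86). The whole endothelial list summed to 0.104 against 0.0996 UMIs per 10000, and the median fold of the 2 genes turned from 0.828 to 1.27 under that scaling.

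Members of different libraries were much alike. Over 3720 genes at 0.5 or more UMIs per 10000 in members, the highest library over the lowest had a median of 1.19, and 16 genes differed by 2-fold or more. Scgb3a1, an airway secretoglobin that the rule limits, was at 0 in members of A and B and at 0.665 and 0.952 in C and D, where the other nuclei held 9.2 and 21.2. Camk1d, a calcium-dependent kinase, stood at 26.6, 9.9, 8.69 and 9.11 in members of libraries A to D and at 24.3, 8.39, 8.2 and 7.85 in the others. It was thus high in library A in members and others alike. Fabp5, a fatty acid-binding protein, stood at 1.33, 2.11, 0.873 and 1.41 against 0.0843, 0.249, 0.164 and 0.295. Gdf15, a stress-induced cytokine, was lowest in members of library A, at 0.256 against 0.551 to 0.683 in those of the other libraries. No test was made of these differences, since the libraries carry no group.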
